A study of Mus musculus with 8 samples.

Results

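The genes described here are 10 genes of the megakaryocyte and platelet lineage, measured for DNA methylation in hematopoietic stem cells of 4 mice with a conditional Atg12 knockout and 4 control mice. They were listed by name: Pf4, Itga2b, Itgb3, Gp9, Gp1ba, Gp1bb, Gp6, Treml1, Nfe2 and F2rl2. The CpGs taken for each gene lay between 5 kb before and 5 kb after it, and a CpG was kept with at least 10 reads in at least 3 mice of each group. Of 1215 CpGs listed for any mouse in these windows, 439 were kept, against 1278034 kept of 5202765 over chromosomes 1 to 19. The gene list is 10 of 20665 autosomal protein-coding genes, and 9 of the 10 had a kept CpG.

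Levels were read by enhanced reduced representation bisulfite sequencing, which sequences CpG-rich restriction fragments after bisulfite has converted unmethylated cytosines. The knockout mice carried loxP-flanked Atg12 alleles with Mx1-Cre, a recombinase under an interferon-inducible promoter that is active in many cell types. The design text describes Cre-free controls with loxP-flanked Atg12, but WT is their genotype label. Both groups were on the C57BL/6 strain, received poly(I:C) at 4 weeks of age, and gave bone marrow 2 to 3 months later. Stem cells were sorted from single mice by flow cytometry, as CD150+, CD48-, Flk2- cells among lineage-negative cells with Sca-1 and c-Kit, without culture. Atg12 encodes a ubiquitin-like protein needed to form autophagosomes, the vesicles of autophagy. Its deletion cannot be read from CpG levels, so it was not checked here.

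Megakaryocytes are the marrow cells that shed platelets, and a fraction of hematopoietic stem cells is known to be biased towards them and to transcribe platelet genes. Platelets bind von Willebrand factor through the complex of glycoproteins Ib and IX, and collagen through glycoprotein VI. These contacts activate the integrin αIIbβ3, which then binds fibrinogen. Methylation of CpG-rich promoters goes with silence of a gene, whereas methylation inside genes is common and has no fixed relation to transcription. Gene expression was not measured in these samples.

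The 8 tables listed from 2038266 to 3366162 cytosines, and median coverage over the kept member CpGs was lowest in knockout 28 (176 reads) and highest in knockout 45 (260 reads). Knockout libraries held 7.90 to 9.01 Y-chromosomal cytosines per 10000 listed and control libraries 1.15 to 1.83. The X-chromosomal share was 1.83 to 1.93% in knockouts and 2.42 to 2.54% in controls. Genotype therefore cannot be told apart from X and Y content, or from a difference in sex. Coverage of highly methylated CpGs relative to unmethylated ones was lowest in control 34 (0.366) and knockout 25 (0.433) and ran from 0.575 to 0.826 in the other libraries. Of 14 genes that mark stem cells, 10 had a measured start, each with a mean level under 20%. Of 22 genes of mature blood lineages, 6 had a measured start, of which 3 were under 20%. Over all measured gene starts 90.6% were under 20% and 5.09% over 80%. Values given mouse by mouse run in the order knockout 25, 28, 45 and 46 and control 1, 34, 36 and 37.

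The promoters of 3 members show where unmethylated and partly methylated CpGs lie, and they are printed from RefSeq (GRCm38.p6, the assembly behind mm10, on which the files are built). Entries were matched for 8 of the 10 members. Each runs 5′ to 3′ on the strand of its gene, from 250 bases before the start to 50 bases after it counting the first transcribed base, and capitals mark the CpGs with kept measurements. The Pf4 promoter lies at chr5:90772185-90772484 on the + strand, that of Itga2b at chr11:102469834-102470133 on the - strand, and that of Gp1bb at chr16:18622354-18622653 on the - strand.
Pf4: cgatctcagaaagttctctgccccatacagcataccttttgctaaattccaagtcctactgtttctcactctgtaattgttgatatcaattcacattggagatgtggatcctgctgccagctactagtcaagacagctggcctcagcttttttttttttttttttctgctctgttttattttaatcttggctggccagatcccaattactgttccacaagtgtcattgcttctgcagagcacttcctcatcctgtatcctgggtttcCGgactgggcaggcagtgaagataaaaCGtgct
Itga2b: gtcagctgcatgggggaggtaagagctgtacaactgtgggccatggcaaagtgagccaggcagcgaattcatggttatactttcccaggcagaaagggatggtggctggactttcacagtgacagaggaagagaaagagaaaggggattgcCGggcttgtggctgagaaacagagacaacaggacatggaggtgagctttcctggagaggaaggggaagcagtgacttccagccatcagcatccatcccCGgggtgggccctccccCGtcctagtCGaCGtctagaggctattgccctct
Gp1bb: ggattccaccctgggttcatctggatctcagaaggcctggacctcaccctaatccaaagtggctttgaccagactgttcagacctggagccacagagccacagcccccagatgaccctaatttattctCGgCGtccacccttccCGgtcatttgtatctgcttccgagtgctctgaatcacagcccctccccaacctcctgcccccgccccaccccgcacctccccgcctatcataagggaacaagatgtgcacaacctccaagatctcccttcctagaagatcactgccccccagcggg
These stretches hold 3, 6 and 8 CpGs, beside a median of 7 over 32851 RefSeq promoters. In Pf4 both measured CpGs, 17 and 44 bp past the start, were at 0% in the controls and at 0.353% and 0% in the knockouts. In Itga2b each of the 5 measured CpGs had a mean of at most 1.503% in either group. The Gp1bb promoter differed from these: its 3 measured CpGs, 121, 118 and 105 bp before the start, were partly methylated, at 8.33%, 29.3% and 8.12% in knockouts and 27.6%, 47.2% and 16.5% in controls. The SDs over mice were wide, at 10.9, 23.6 and 14.2 percentage points in knockouts and 21.7, 31.7 and 17.2 in controls. Of the 7 tested CpGs 105 to 554 bp before the start, 0 had an unadjusted p under 0.05 (quasi-binomial F test).

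Short motifs of factors known to act in megakaryocytes were searched on both strands of the 8 promoters. The GATA motif, AGATAA or TGATAA, stood in Pf4, Gp1ba, Gp6 and F2rl2, and 18.6% of all promoters held it. The ETS motif, AGGAAG or CGGAAG, stood in Pf4, Itga2b, Gp9, Gp1ba, Gp1bb and F2rl2, against 46.5% of all promoters. TGAGTCA, a core of the NF-E2 motif, stood in F2rl2, against 5.20% of all promoters. Matches describe letters in these windows and were not tested as binding sites.

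Most kept CpGs of the member windows were either unmethylated or nearly fully methylated. These windows also cover neighbouring genes. In Septin5, upstream of Gp1bb, lay stretches of 89 and 7 CpGs, with 67 and 2 under 20% and 21 and 5 at 20 to 80%. In or beside Slc25a11 and Rnf167, downstream of Gp1ba, lay 27 CpGs, all under 20%. Of the 439 kept CpGs, 293 (66.7%) had a mean level over the mice under 20%, 52 (11.8%) lay between 20 and 80%, and 94 (21.4%) were over 80%. Over all kept CpGs these shares were 59.8%, 7.36% and 32.9%. The SD over the 8 mice had a median of 0.187 percentage points for the low CpGs, 5.97 for the high ones and 20.1 for those between. At some CpGs of intermediate mean level, single mice read less than 1 percentage point from 0 or 100%. This held for 3 of 51, 12 of 52, 15 of 47 and 8 of 51 such CpGs in knockouts 25, 28, 45 and 46. In controls 1, 34, 36 and 37 it held for 5 of 51, 12 of 49, 1 of 51 and 7 of 52. In sorted cells measured in bulk, a level between 0 and 100% does not tell a share of cells from a share of alleles.

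No member CpG, gene window or gene start passed the test between genotypes. Of the 439 kept CpGs, 109 had a mean level between 5 and 95% and were tested with a moderated quasi-binomial model, and 0 were called at an adjusted p of 0.05, against 0.00637% of the 313880 CpGs tested over the genome. The smallest adjusted p was 0.369, and the model without moderation and limma on log2 ratios of reads also called 0 member CpGs. Unadjusted p under 0.05 was reached by 7 CpGs with lower levels in the knockouts (6.42%) and 4 with higher levels (3.67%), against 4.11% and 2.4% over the genome. Knockout and control values did not overlap at 3 lower CpGs (2.75%) and 5 higher ones (4.59%), against 1.54% and 1.59%. These shares stand beside their background as a description, since neighbouring CpGs can share reads.

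Window means gave the same picture. The mean level over the CpGs covered in all 8 mice was available for 8 of the 10 members and was tested with limma for the 7 between 5 and 95%, and 0 were called, as over all 12798 tested gene windows (0%). No member window had an unadjusted p under 0.05, with a background of 2.78% lower and 1.61% higher, and the groups overlapped in each, against 1.63% lower and 1.12% higher windows without overlap. The smallest adjusted p was 0.996. The knockouts had the lower mean in 4 windows and the higher mean in 4. With reads summed over the CpGs of a window in place of equal weights, 6 were lower and 2 higher. The median difference of the 7 tested windows was -0.173 percentage points, beside -0.033 over all tested windows, whose median absolute difference was 0.458. At the start of the genes, within 1000 bp to either side, 6 members were measured, 3 tested and 0 called, as over all 1922 tested starts (0%). Among the 6, Itgb3 and Nfe2 had no listed strand and were not tested. Their start was taken as the gene end with more listed CpGs, which may not be the true start. None of the 3 starts had an unadjusted p under 0.05 or groups that did not overlap; the background was 3.28% lower and 2.39% higher for the first and 2.03% and 1.4% for the second.

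**Figure D1:**
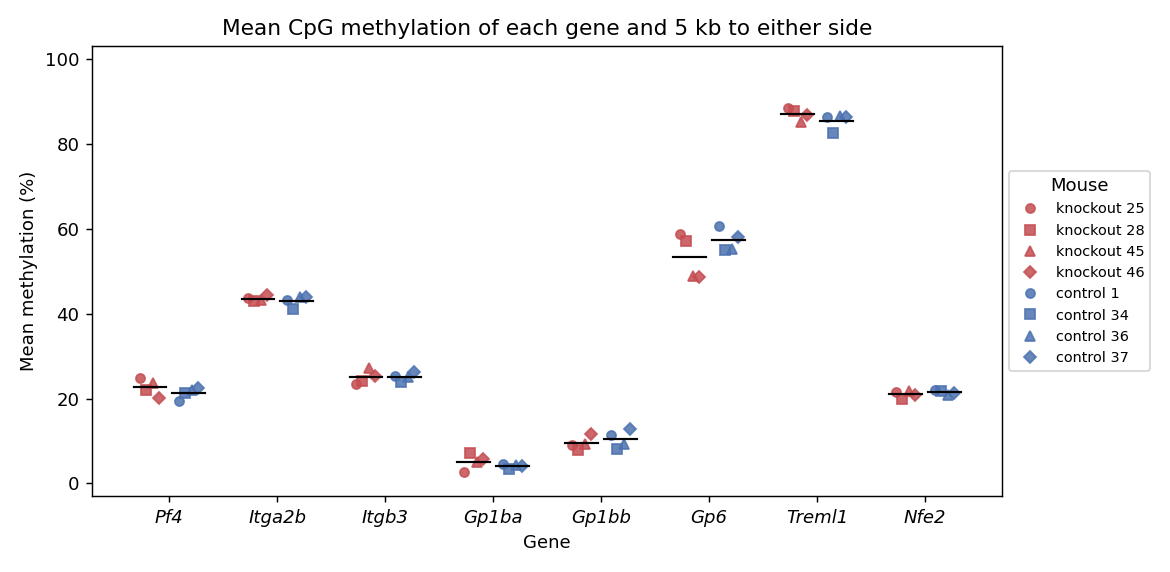
Mean CpG methylation in percent (vertical axis) of each gene with 5 kb to either side, for the 8 genes with CpGs covered in all mice; each symbol is a mouse, red for knockout and blue for control, and black bars are group means. Levels differ between genes from under 10% in Gp1ba to over 80% in Treml1, while the mice of both genotypes overlap in each gene.

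**Figure D2:**
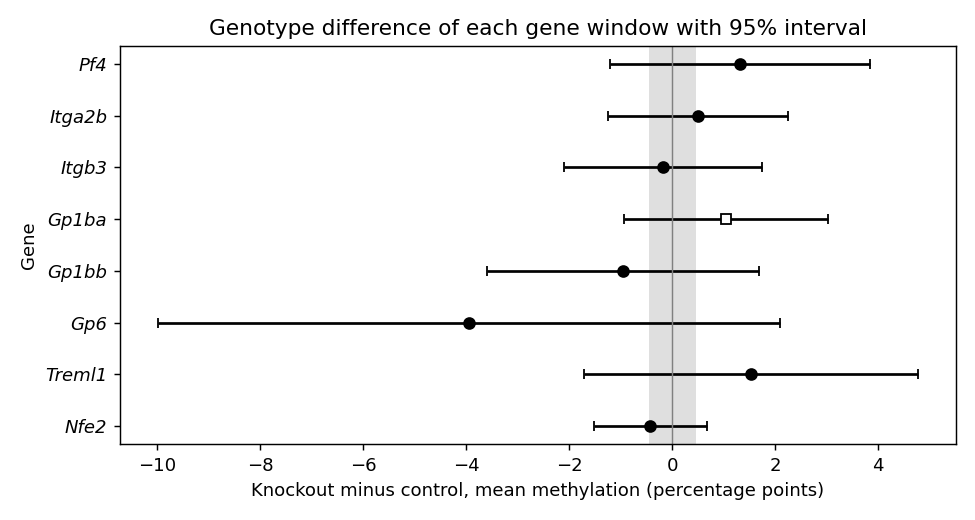
Knockout minus control in mean methylation of each gene window, in percentage points, with the 95% interval of limma (n = 4 mice per group). The open square of Gp1ba marks a window outside the tested range of levels, the grey band spans the median absolute difference of all tested windows (0.458) to either side of 0, and each interval includes 0.

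The fibrinogen receptor is made of integrin αIIb, encoded by Itga2b and known as CD41, and integrin β3, encoded by Itgb3. Itga2b (chromosome 11, 102453297 to 102469883) had 85 kept CpGs, of which 40 were under 20% and 34 over 80%. Its window mean was 43.6, 42.9, 43.2 and 44.4% in knockouts 25, 28, 45 and 46 and 43.1, 41.1, 44.0 and 43.9% in controls 1, 34, 36 and 37. Control 34 was the lowest of the 8 and the genotypes overlapped. Group means were 43.5% ± 0.641 and 43.0% ± 1.34 (SD, n = 4 each), and the difference was 0.497 percentage points (95% interval -1.25 to 2.24; limma, adjusted p = 0.996). Without control 34 the difference was -0.143, and with reads summed over CpGs it was -2.97 percentage points.

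Along Itga2b, unmethylated and methylated stretches alternated. From 98 bp before the start to 101 bp after it, 6 CpGs were unmethylated, with levels of 0 to 5.44% in either group, and the next CpG measured in all mice, 595 bp into the gene, was at 97.8% in knockouts and 96.0% in controls. The mean of these 7 CpGs was 13.6, 14.4, 14.3 and 14.8% in knockouts and 15.5, 14.3, 14.1 and 14.9% in controls. Their difference of -0.444 percentage points (95% interval -2.20 to 1.31, limma, adjusted p = 0.991) was within the spread of the mice. Methylation stayed high to 1610 bp into the gene, fell to 0 to 2% in a stretch of 16 CpGs between 2434 and 2684 bp, and was 16.2 to 78.1% from 3547 to 3624 bp. A block of 11 CpGs 9034 to 9790 bp from the start was at 92.6% ± 1.59 in knockouts and 92.0% ± 4.00 in controls. Further 3′, 12 CpGs 13812 to 14138 bp from the start were again unmethylated, at 0.944% ± 1.43 and 0.0538% ± 0.0223. Knockout 46, at 3.04%, stood above the other 7 mice there, which were at most at 0.658%.

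**Figure D3:**
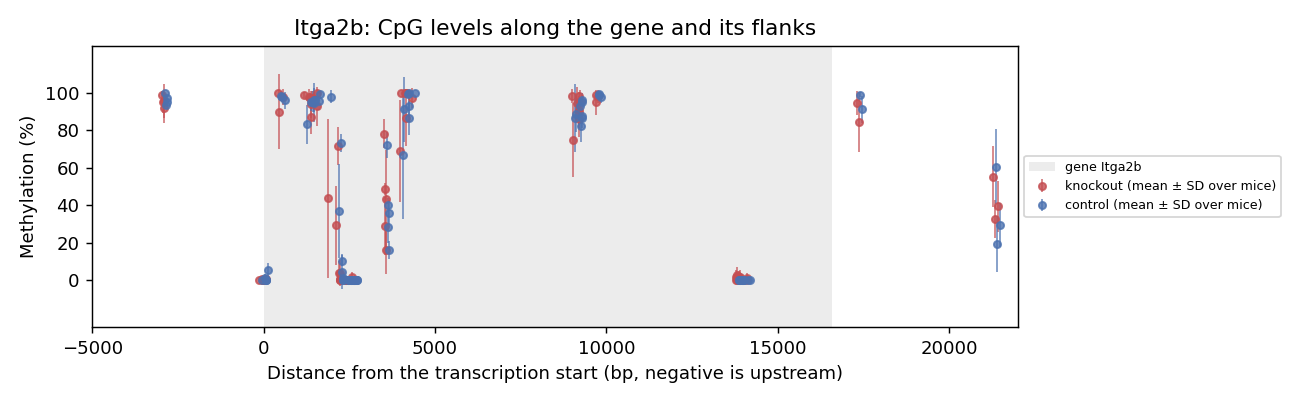
Methylation in percent (vertical axis) of each kept CpG against its distance in bp from the Itga2b start, as mean ± SD over the knockout (red) and control (blue) mice; the gene body is shaded. Unmethylated CpGs lie at the start, near 2.5 kb and near 14 kb, with methylated and partly methylated CpGs between them.

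Among the 28 tested Itga2b CpGs, 14 were lower and 14 higher in the knockouts. The smallest p belonged to a CpG at position 102465670, 4213 bp into the gene, which read 100% in all 4 knockouts and 92.0, 85.4, 74.1 and 94.2% in the controls. The genotypes did not overlap at this CpG, with 62 to 300 reads per mouse (difference 13.6 percentage points, quasi-binomial F test, p = 0.00756, adjusted p = 0.740). Another CpG without overlap was chosen for mention after its values were seen: at position 102466304, 3579 bp into the gene, levels were 46.3 to 53.1% in knockouts and 35.7 to 43.1% in controls at 450 to 1177 reads (adjusted p = 0.778).

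Itgb3 (chromosome 11, 104608000 to 104670476) is the longest member and had 91 kept CpGs. At its lower-coordinate end, taken as its start because it held the most listed CpGs, 51 CpGs from 316 bp before to 343 bp after it were unmethylated in every mouse. Their mean was 0.272, 0.219, 0.0518 and 0.182% in knockouts and 0.438, 0.0722, 0.341 and 0.195% in controls. The remaining 40 CpGs lay 14 to 62 kb from that end, and 32 of them were over 80%. The window mean was 23.5, 24.2, 27.1 and 25.3% in knockouts and 25.3, 24.0, 25.2 and 26.3% in controls. Knockouts held both the lowest and the highest value, and the difference was -0.173 percentage points (95% interval -2.10 to 1.75, limma, adjusted p = 0.9986). Its sign turned without knockout 25 (0.339), knockout 28 (0.0986) or control 37 (0.198), and with reads summed it was -3.17.

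The Itgb3 CpG of smallest p, at position 104658853, rested on 1 mouse. Knockout 45 read 35.7% from 129 reads, while the other 3 knockouts and the 3 measured controls each read 100%, with 18 to 129 reads over the 7 mice (p = 0.00197, adjusted p = 0.692, quasi-binomial F test). Without knockout 45 the difference was 0. A CpG at position 104625464, named after its values were seen, read 100% in the 4 knockouts and 46.2, 69.7 and 39.1% in the 3 measured controls at 19 to 106 reads (adjusted p = 0.740).

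The von Willebrand factor receptor joins the products of Gp1ba, Gp1bb and Gp9, of which glycoprotein Ibα binds the ligand. Gp1bb (chromosome 16, 18620319 to 18622403), the β chain, had the most CpGs of any member, 170 kept and 47 tested. Inside the gene 61 CpGs, 651 to 1490 bp from the start, were unmethylated. The 52 of these covered in all mice averaged 0.477% ± 0.171 in knockouts and 0.310% ± 0.210 in controls. Upstream, the window runs into Septin5, a gene of the septin cytoskeleton that overlaps the start of Gp1bb. There 67 of 89 CpGs 1636 to 4343 bp before the start were under 20%, and so were 2 of 7 CpGs nearer to it. A mean level over 80% was reached by 1 upstream CpG. Of 29 Gp1bb CpGs at 20 to 80%, 26 lay in this upstream region. Over the whole window the mean was 9.09, 7.93, 9.32 and 11.6% in knockouts and 11.4, 8.20, 9.29 and 12.9% in controls. The difference was -0.962 percentage points (95% interval -3.60 to 1.68, limma, adjusted p = 0.996), and it was 0.168 with no flank, where only the unmethylated gene body remained. It was -0.140 without control 37, -0.439 without knockout 28 and -2.85 with reads summed.

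The start of Gp1bb was the member start with the widest spread over mice. Its 14 CpGs averaged 10.5, 6.23, 0.141 and 14.4% in knockouts and 12.5, 8.60, 12.8 and 18.2% in controls. Knockout 45 stood near 0, and the genotypes overlapped. The difference was -5.20 percentage points (7.82% ± 6.11 against 13.02% ± 3.94, SD, n = 4 each; 95% interval -12.6 to 2.22; limma, adjusted p = 0.916). Without knockout 45 it was -2.64, with reads summed -1.04, with CpGs covered in at least 3 mice of each group -9.36, and within 500 bp of the start -15.4. The spread lay in the CpGs 105 to 554 bp upstream, which include the 3 CpGs in capitals in the promoter printed above. The 5 of these covered in all mice averaged 28.6, 17.4, 0 and 39.3% in knockouts and 34.2, 23.9, 35.5 and 47.6% in controls. All 7 tested CpGs of this stretch had lower means in the knockouts, 0 of them with an unadjusted p under 0.05, at 12 to 325 reads. CpGs this close can share reads, so they are not independent of each other.

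Farther upstream, 4 neighbouring CpGs of Gp1bb lie 1636 to 1718 bp before the start, inside Septin5. The CpG at position 18624087 had the smallest p of any member CpG. It read 53.5, 57.2, 50.8 and 65.4% in knockouts and 81.7, 74.3, 69.8 and 86.1% in controls, from 474 to 976 reads per mouse. All 4 knockouts were below all 4 controls, by 21.2 percentage points in the mean (56.7% ± 6.35 against 77.9% ± 7.31, SD, n = 4 each). It did not pass the test over the genome (p = 0.000124, adjusted p = 0.369, quasi-binomial F test), and the adjusted p ran from 0.243 to 0.950 over the other settings. Means at the other 3 CpGs, named after their values were seen, were 12.4, 55.4 and 18.1% in knockouts and 26.5, 62.3 and 35.0% in controls, with overlapping groups. A CpG farther upstream, also named after its values were seen, differed the other way: at position 18626320 the knockouts read 12.7, 11.2, 59.4 and 16.5% and the controls 7.10, 0, 6.73 and 0% (adjusted p = 0.756). Of the 34 tested CpGs from 1636 to 4343 bp upstream, 18 were lower and 16 higher in the knockouts.

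**Figure D4:**
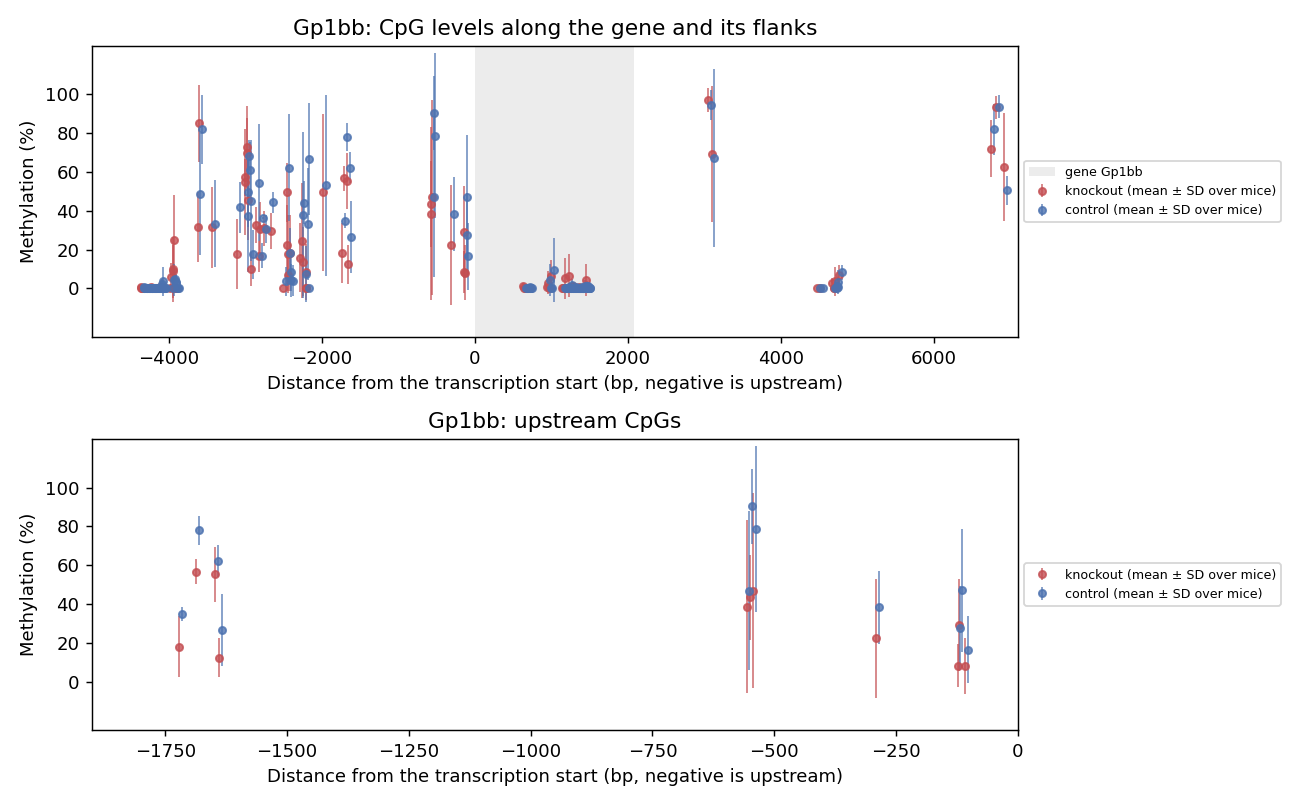
Methylation in percent (vertical axis) of each kept CpG against its distance in bp from the Gp1bb start, as mean ± SD over knockout (red) and control (blue) mice, over the whole window (top, gene body shaded) and for the CpGs nearest upstream (bottom). The gene body is unmethylated. Of the 89 CpGs from 1636 to 4343 bp upstream, 67 have a mean level over the mice under 20% and 1 over 80%. The partly methylated upstream CpGs have wide error bars. The CpG 1684 bp upstream is at 56.7% in knockouts and 77.9% in controls.

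Gp1ba (chromosome 11, 70639102 to 70643986) had 30 kept CpGs, but 27 of them lay downstream in or beside the neighbours Slc25a11 and Rnf167 and were unmethylated, at most at 2.44%. Inside the gene, 2 CpGs covered in all mice, 2307 and 2349 bp from the start, were partly methylated. Their mean was 35.0, 89.0, 66.7 and 77.3% in knockouts and 60.02, 45.03, 57.9 and 55.5% in controls. Knockout 25 was the lowest and knockouts 28, 45 and 46 the highest of the 8 mice. The CpG at position 70641471 repeats this, with 36.7% in knockout 25, 100% in the other 3 knockouts and 61.9 to 70.8% in the controls (72 to 281 reads; p = 0.108, adjusted p = 0.779, quasi-binomial F test). The window mean, 5.15% ± 1.89 against 4.10% ± 0.477 (SD, n = 4 each), was below the tested range, and its interval from limma over all measured windows ran from -0.936 to 3.02 percentage points around 1.04.

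Gp9 (chromosome 6, 87776131 to 87779786), which encodes glycoprotein IX of this complex, was thinly covered. Its 3 kept CpGs lay 2903 to 2941 bp past the start, beyond the gene's end, had a median of 13 reads, and read 100% in every mouse that covered them. No Gp9 CpG was covered in all 8 mice, so it has no window value and no test.

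Among the signalling receptors, Gp6 (chromosome 7, 4362853 to 4397851), the collagen receptor glycoprotein VI, was measured at 3 CpGs within about 50 bp, 12763 to 12814 bp into the gene. Their mean was 58.6, 57.0, 48.8 and 48.5% in knockouts and 60.5, 54.9, 55.2 and 58.1% in controls. Knockouts 45 and 46 were the lowest and the other mice overlapped. The difference of -3.94 percentage points was the largest among the member windows, with the widest interval (-9.99 to 2.10; 53.3% ± 5.33 against 57.2% ± 2.63; limma, adjusted p = 0.996). At the CpG 12763 bp into the gene, position 4384981, the controls lay within 35.2 to 36.2% and the knockouts read 31.5, 36.9, 10 and 27.3% from 271 to 540 reads (p = 0.0662, adjusted p = 0.772, quasi-binomial F test). The control values there were close together, and knockout 45 was far below all others.

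F2rl2 (chromosome 13, 95696920 to 95702768) encodes PAR3, the thrombin cofactor receptor of mouse platelets, and lies within the gene Iqgap2. Of 44 CpGs listed in its window 0 were kept, since no CpG was covered in more than 5 mice. Its methylation could not be measured here in either genotype.

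The granule genes were measured at unlike positions near their starts, Pf4 from 17 bp and Treml1 from 296 bp into the gene. Pf4 was unmethylated there and Treml1 largely methylated, but 0 of the 5 CpGs in the Treml1 promoter were measured. Pf4 (chromosome 5, 90772435 to 90773383) encodes platelet factor 4, a chemokine of the alpha granules whose promoter is used to drive Cre in megakaryocytes. Its 7 start CpGs measured in all mice, 17 to 177 bp into the gene, averaged 0.110, 0.103, 0 and 0.0992% in knockouts and 0.0904, 0, 0 and 0% in controls, at 80 to 222 reads per CpG and mouse. Single methylated reads give levels of this size, in either genotype. The window also holds 3 CpGs 4771 to 4815 bp past the start, at 82.7, 73.0, 78.6 and 66.6% in knockouts and 64.6, 71.2, 73.5 and 74.5% in controls, which overlapped. The window mean differed by 1.32 percentage points (22.6% ± 2.09 against 21.3% ± 1.31; 95% interval -1.20 to 3.84; limma, adjusted p = 0.996). With reads summed over CpGs instead, the difference was -3.98, and it was 0.0554 with no flank. The CpG of smallest p, at position 90777236, read 82.5 to 100% in knockouts and 80.7 to 100% in controls (adjusted p = 0.823).

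Treml1 (chromosome 17, 48359916 to 48367176) encodes a receptor stored in platelet alpha granules and had the highest window mean of the members. Of its 12 kept CpGs 11 were over 80% and 0 under 20%. Nearest the start, 4 CpGs 296 to 390 bp into the gene averaged 76.8, 78.8, 75.3 and 73.6% in knockouts and 77.0, 73.0, 77.2 and 76.4% in controls. This overlap left a difference of 0.216 percentage points (95% interval -4.79 to 5.22, limma, adjusted p = 0.998), and its sign turned without knockout 25 (-0.00688), knockout 28 (-0.677) or control 34 (-0.751). The first of the 4 CpGs was at 31.7% in knockouts and 31.2% in controls, and the other 3 were at 84.2 to 97.3%. The window mean was 88.4, 87.7, 85.0 and 86.8% in knockouts and 86.4, 82.6, 86.4 and 86.4% in controls. Control 34 was the lowest of the 8, and the difference was 1.53 percentage points (95% interval -1.70 to 4.76, limma, adjusted p = 0.996). It was 0.581 without control 34 and 0.106 without control 34 and knockout 25. The CpG of smallest p, position 48367121, read 100% in 3 knockouts and 2 controls and 62.5% in control 1, at 11 to 56 reads (adjusted p = 0.867).

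Nfe2 (chromosome 15, 103248212 to 103258403) encodes the p45 subunit of NF-E2, a transcription factor required for platelet release. Its 34 kept CpGs were either under 20% (27) or over 80% (7), with 0 between. A block of 21 CpGs inside the gene, 6968 to 7305 bp from its lower-coordinate end, was unmethylated at 0.0441% ± 0.0527 in knockouts and 0.0833% ± 0.0634 in controls. At the lower-coordinate end, 7 CpGs averaged 96.3, 91.4, 99.4 and 92.3% in knockouts and 99.7, 96.5, 92.8 and 92.0% in controls. Beyond the upper-coordinate end, 3 CpGs 10427 to 10464 bp from the lower-coordinate end had mean levels of 0 to 1.09%. A further 3, 11298 to 11375 bp from it, were at 0.679 to 12.1%. The 7 CpGs at the lower-coordinate end are the measured start by the rule used here. The strand of Nfe2 is not given in the tables used, so none of these blocks could be placed relative to its promoter. The difference of this start, -0.392, turned without knockout 28 (0.762), knockout 46 (0.461), control 1 (1.08) or control 34 (0.0202). The window mean differed by -0.423 percentage points (21.0% ± 0.824 against 21.5% ± 0.491; 95% interval -1.52 to 0.671; limma, adjusted p = 0.996), the narrowest interval of the members. A CpG at position 103248825 read 73.9, 74.0, 96.8 and 86.5% in the knockouts and 100% in all 4 controls, at 46 to 252 reads (p = 0.0136, adjusted p = 0.750, quasi-binomial F test). The genotypes did not overlap at that CpG.

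**Figure D5:**
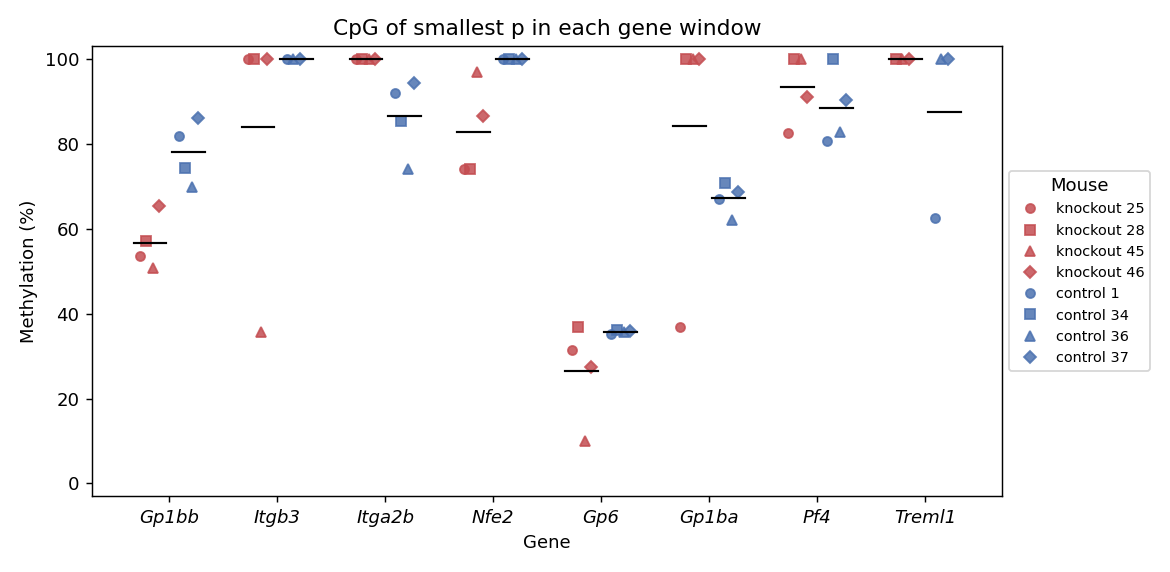
Methylation in percent (vertical axis) of the CpG with the smallest p in each gene window, ordered by p from left to right; each symbol is a mouse, red for knockout and blue for control, and black bars are group means. Gp1bb, Itga2b and Nfe2 show groups that do not overlap, and picking CpGs by smallest p favours such groups. Over all tested CpGs, 1.54% were lower and 1.59% higher without overlap. In Itgb3 and Gp1ba a lone knockout mouse sits apart, and in Gp6 knockout 45 is the lowest at 10%. Of the CpGs shown, 0 passed the test over the genome.

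A further list of platelet genes gave the same count of 0. The list is not complete: Gata1 and Flna, on the X chromosome, and Septin5 were left out. Of 71 further megakaryocyte and platelet genes, listed by role, 66 windows were measured and 55 tested, and 0 were called in either direction (limma, smallest adjusted p = 0.996), as over all tested windows. At an unadjusted p under 0.05 there were 0 lower and 1 higher of the 55, where all tested windows had shares of 2.78% and 1.61%. In all, 29 tested windows were lower and 26 higher in the knockouts, with a median difference of -0.0626 percentage points beside -0.033 over all tested windows. Among 8 tested adhesion and collagen receptors 5 were lower and 3 higher, among 6 agonist receptors 3 and 3, among 9 granule contents 3 and 6, among 19 signalling and cytoskeletal genes 13 and 6, and among 13 transcription factors 5 and 8. Of 41 measured starts 38 were under 20%, and 1, that of the granule proteoglycan Srgn, was over 80%. The window of the chemokine gene Ppbp, a neighbour of Pf4, rested on the same 7 CpGs as the Pf4 start.

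Of these genes the smallest p among the lower windows belonged to Ptgir, the prostacyclin receptor that inhibits platelets, at 3.61, 6.06, 8.46 and 3.76% in knockouts and 6.88, 9.34, 6.95 and 9.54% in controls (difference -2.70 percentage points, 95% interval -5.43 to 0.0184, limma, adjusted p = 0.996). It was -0.240 with no flank or a flank of 1 kb. Etv6, an ETS factor of megakaryocytes, was at 47.8% ± 0.772 against 48.8% ± 0.555, and Itga6, a laminin receptor chain, at 24.7% ± 0.627 against 25.3% ± 0.283 (SD, n = 4 each). Among the higher windows, Lat, an adaptor below glycoprotein VI, read 67.6, 69.3, 68.6 and 67.9% in knockouts and 66.6, 62.4, 67.8 and 65.0% in controls. Control 36 overlapped the knockouts, and the difference was 2.93 percentage points (95% interval 0.0634 to 5.79, limma, adjusted p = 0.996). It was -1.32 with no flank and -0.452 with reads summed. Nfib was at 11.0% ± 0.322 against 10.5% ± 0.531, and P2ry12, the ADP receptor, at 65.1% ± 4.09 against 61.3% ± 1.99, both with overlapping groups.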

How the data were processed

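Per the labels, enhanced reduced representation bisulfite libraries of sorted stem cells came from 8 mice, 4 per genotype. The submitters' processing notes name Bismark, CASAVA 1.8.2 and, as the build, mm10; read filters and duplicate removal are not stated there or in the labels. The deposited tables give, per the file headers, a coverage count of reads over each cytosine (never under 10) and the percent of those reads with C or T. Methylated reads were recovered as coverage times percent, rounded, and both strands of a CpG were added.

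CpGs on chromosomes 1 to 19 with at least 10 reads in at least 3 mice of each group and a mean level from 5 to 95% were fitted with a quasi-binomial model on genotype, with overdispersion moderated by squeezeVar (limma 3.58.1, R 4.3.3) with 1 as its lowest value. Gene windows and starts with at least 3 CpGs covered in all 8 mice were tested as equally weighted mean levels with limma, trend allowed. P-values were adjusted by Benjamini-Hochberg over all CpGs, windows or starts, and 0.05 was the threshold. A gene start was the most upstream start in the RefSeq promoter table, which 16457 of the 20665 genes had. For every other gene, Itgb3 and Nfe2 among them, it was the gene end with more listed CpGs. Shares over all measured or tested starts therefore include ends picked by their CpG count. Intervals of members outside the tested range came from limma over all measured windows or starts. Exons, introns and untranslated regions were not used here.

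The members and lists were chosen with earlier results of these data known. Each member was named, with its CpG of smallest p; of the other platelet genes, the 3 lower and 3 higher windows of smallest p were named. Libraries are from separate mice whose numbers the genotypes do not share, and no pair held identical values. The percentages of reads carry counting error, and reads that carry no molecular identifier can be copies of the same molecule. Alternatives covered coverage limits, other tests, window widths, summed reads and leaving out mice.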

Additional observations from a re-analysis of the deposited data

Results flagged for a closer look

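Among 53 groups of 4 mice checked for a mouse far from the other 3, 6 were found. The cutoff flags about 1 in 20 groups of normally distributed values. That rate does not hold for mice tied at 0 or 100% or for CpGs picked by smallest p, so no excess is read from the count. The Treml1 window was at 82.6% in control 34, against 86.4% in each of the other 3 controls. The Pf4 start was at 0% in knockout 45, against 0.0992 to 0.110% in the other knockouts, and at 0.0904% in control 1, against 0% in the other controls; single reads give differences of this size. The Itgb3 CpG of smallest p was at 35.7% in knockout 45 and at 100% in the other knockouts. The Gp1ba CpG of smallest p was at 36.7% in knockout 25 and at 100% in the other knockouts. The Itga6 window was at 23.7% in knockout 45, against 24.8 to 25.05% in the other knockouts. Causes were not tested.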

How the results depend on the processing

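No member CpG, window or start was called under any of the alternatives run for it, and the 71 other platelet genes, whose alternatives were added after seeing the data, also had 0 windows called. Of 421 differences from alternatives, 386 kept their sign, 33 turned and 2 were 0; the smallest adjusted p was 0.243. Leaving out each mouse in turn, the difference (percentage points) ran from -0.869 to 0.339 for the Itgb3 window, from -0.143 to 0.826 for the Itga2b window, from -0.751 to 1.05 for the Treml1 start, from -1.92 to 1.08 for the Nfe2 start, from -21.4 to 0 for the Itgb3 CpG and from 0 to 18.8 for the Treml1 CpG. Without control 34 and knockout 25 together, it was -0.154 for the Itga2b window and -0.974 for the Treml1 start. With reads summed, it was -3.98 for Pf4, -2.97 for Itga2b, -0.498 for Gp1ba, -3.17 for Itgb3, -2.85 for Gp1bb, -4.36 for Gp6, 0.373 for Treml1, 0.409 for Nfe2, 0.735 for the Nfe2 start, -4.71 for Etv6, 1.04 for Itga6, -0.452 for Lat and -0.953 for Nfib. With CpGs covered in at least 3 mice of each group, it was -0.140 for the Itga2b window, -0.117 for Gp1ba, 0.875 for Itgb3, 0.700 for Etv6, 1.15 for Itga6, -0.941 for P2ry12, -0.00837 for the Pf4 start and 3.61 for the Itga2b start, where control 34 lacked 2 methylated CpGs. With no flank it was 0.168 for Gp1bb and -1.32 for Lat; Lat was at -0.0283 with a 1 kb flank and with a coverage minimum of 20. Apart from the CpG sets named, causes were not tested. No paired analysis was run, since the sample labels used here give no pairing of knockout with control mice. Coverage in too few mice limits what could be seen in Gp9 and F2rl2, and the number of CpGs, 3, in Gp6.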
